A study of Homo sapiens with 12 samples.

Results

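Acetylation of lysine 9 of histone H3 (H3K9ac) was compared between MDA-MB-231 cells exposed to nitric oxide and untreated cells, using 4 of the 12 samples of the series. MDA-MB-231 is an established human triple negative breast cancer line, so every sample comes from 1 line. All cells were serum starved overnight. The treated cells then received DETA/NO, a donor that releases nitric oxide slowly, at 500 µM for 24 h, and the other cells were left untreated. Each condition had 2 biological replicates, and the untreated cells were the control for the question of how nitric oxide alters where the mark lies. Chromatin was crosslinked with formaldehyde, sheared to 200 to 500 bp and precipitated with a Millipore antibody to H3K9ac. The samples were chosen by mark and treatment, and not by any measured value.

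The members are 329043 peaks, 120630 and 59724 in untreated replicates 1 and 2 and 79538 and 69151 in treated replicates 1 and 2. To these come the authors' reproducible regions, 1 set per condition made from both of its libraries, with 14377 regions untreated and 21098 treated. Values for libraries are given below in that fixed order of replicates. Each library list carries a score per peak that the authors' peak caller gave. Its scale is not stated, so scores were used only to order peaks within a list. The files hold no read counts, and the depth behind any peak is unknown. Positions are on hg19 and counted from 1. No annotation of that build was used, so loci are given by position and not by gene.

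H3K9 acetylation is written by acetyltransferases such as GCN5 and PCAF and removed by histone deacetylases. The neutral acetyl group weakens the hold of the histone tail on DNA and is bound by proteins with a bromodomain. The mark sits on the nucleosomes that flank active promoters and on active enhancers, usually in compact peaks. Broad acetylated stretches are known from highly active genes and clustered enhancers. The width of a called peak depends on the spread of the mark and also on depth, fragment length and the settings of the caller.

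The lists differed in form before any comparison of conditions. Without nitric oxide the narrowest peak measured 238 and 175 bp, and with it 99 and 114 bp. Peaks at exactly that width made up 44.3% and 30.1% of the untreated lists and 10.5% and 22.9% of the treated lists. Each library therefore has its own lower bound on width, and that bound was lower in both treated libraries. The part of these bounds in the results was not tested, except where widths of at least 300 bp are given.

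Wide H3K9ac peaks took a far larger share of the marked genome after nitric oxide, while the median peak did not separate the conditions. Median width was 240 and 234 bp untreated and 241 and 195 bp treated, so the treated libraries fell on both sides of the untreated ones. The N50, the width at which peaks this wide or wider hold 50% of all covered bases, was 395 and 507 bp untreated and 1800 and 1519 bp treated. The treated mean of 1660 bp ± 199 was 3.68 times the untreated mean of 451 bp ± 79.2 (SD, n = 2). Both treated libraries lay far above both untreated ones. With 2 libraries against 2 the exact two-sided permutation test cannot go below 0.333, which is the p of this difference.

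The wide end of the spectrum carried the difference. Peaks of 2000 bp or more held 7.95% and 4.18% of covered bases untreated and 45.9% and 36.7% treated (exact permutation p = 0.333, n = 2). They numbered 1521 and 384 in the untreated lists and 7610 and 4874 in the treated lists. For peaks of 4000 bp or more the numbers were 42 and 9 against 1245 and 392. The narrow end cannot be compared in this way, because untreated replicate 1 holds no peak below its bound of 238 bp. Among peaks of at least 300 bp, a width that every list can hold, the median was 444 and 565 bp untreated and 829 and 962 bp treated.

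**Figure D1:**
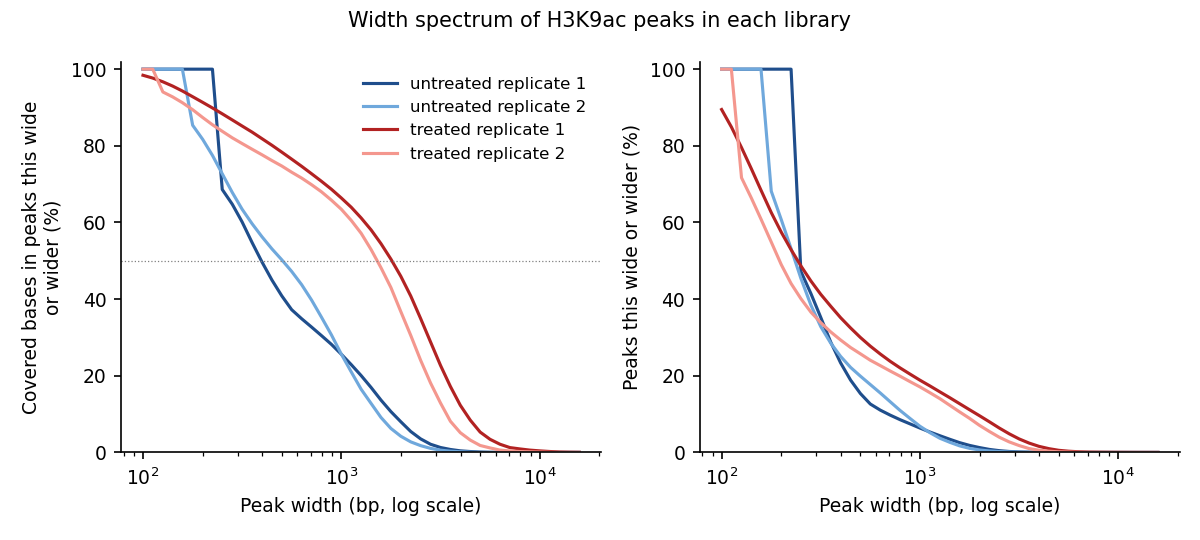
Width spectrum of each H3K9ac library. The left panel gives the percent of covered bases, and the right panel the percent of peaks, in peaks at least as wide as the value on the log-scaled horizontal axis (bp). Each line is 1 library and the dotted line marks 50% of bases, which the untreated lines cross at 395 and 507 bp and the treated lines at 1800 and 1519 bp.

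The width difference was found among the strong peaks and was absent or turned around among the weak ones. The 1000 highest-scoring peaks of a library had a median width of 1710 and 1227 bp untreated and 3520 and 2722 bp treated. At places 5001 to 10000 the medians were 1015 and 711 bp against 2036 and 1584 bp, and at places 10001 to 20000 they were 444 and 330 bp against 962 and 662 bp. In each tier down to place 20000 both treated libraries had the wider median. At places 20001 to 40000 the conditions overlapped, with 282 and 193 bp untreated and 318 and 171 bp treated. At places 40001 to 59724 the treated peaks were the narrower ones, at 157 and 126 bp against 238 and 175 bp. Those untreated medians are the narrowest widths in their lists.

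**Figure D2:**
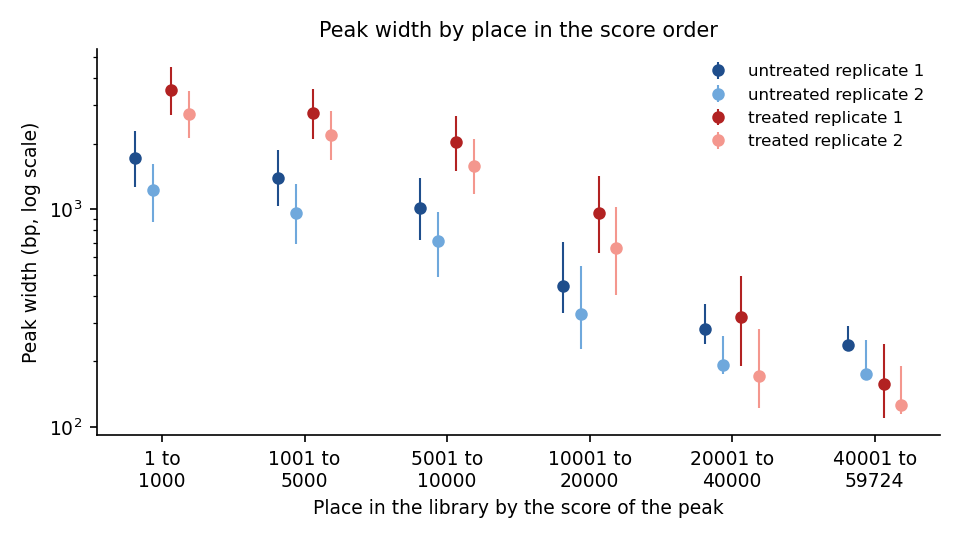
Peak width by place in the score order of each library. Points are medians and bars run from the 25th to the 75th percentile of peaks (bp, log scale), for 6 tiers of places with 1 as the highest score. Both treated libraries lie above both untreated ones up to place 20000, and below them in the last tier.

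In lists cut to the strongest peaks the median width separated the conditions, which it did not in longer lists. With 59724 peaks from each library it was 313 and 234 bp untreated and 354 and 218 bp treated (exact permutation p = 1, n = 2). Among the 20000 highest-scoring peaks of each library the median width was 784 and 567 bp untreated and 1591 and 1217 bp treated, a ratio of means of 2.08. The N50 of these peaks was 1272 and 900 bp against 2462 and 1957 bp. Within lists, wider peaks also had higher scores, with a Spearman rho of width against score of 0.542 and 0.630 untreated and 0.778 and 0.729 treated. These are correlations over peaks of 1 library that share its depth, and they describe the lists only.

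Acetylated peaks lay closer together in the treated lists, and short gaps were more common there. The median gap to the next peak was 11273 and 20275 bp untreated and 2485 and 8373 bp treated. Gaps under 3000 bp made up 24.3% and 27.1% of untreated gaps and 51.7% and 39.2% of treated gaps, or 25.7% ± 1.96 against 45.4% ± 8.84 (SD, n = 2; exact permutation p = 0.333). Gaps under 200 bp were 4.22% and 8.06% untreated and 17.6% and 14.2% treated. The treated libraries stood apart from the untreated ones in each of these measures, although the replicates also differed from each other.

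Peaks less than 3000 bp apart were joined into clusters. A cluster held 1.32 and 1.37 peaks on average untreated and 2.07 and 1.64 treated. Clusters of 5 or more peaks held 4.83% and 5.13% of untreated peaks and 25.8% and 14.9% of treated peaks, 4.09 times as much by the means (p = 0.333, exact permutation, n = 2). Clusters of 10 or more peaks numbered 52 and 21 untreated and 366 and 152 treated. On the scale of 1 Mb bins over 23 chromosomes, the variance of the peak number was 20.7 and 11.9 times its mean untreated and 38.8 and 29.1 times its mean treated. Bins of 100 kb without a peak made up 15.4% and 31.9% untreated and 49.2% and 39.7% treated. In the full lists treated peaks were thus more concentrated both locally and at the scale of chromosome segments.

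Most of this difference was not seen among peaks of 300 bp or more, a limit added after the data were seen. Gaps under 3000 bp then made up 21.8% and 31.8% untreated and 34.4% and 29.7% treated, and a cluster held 1.28 and 1.47 peaks against 1.52 and 1.42. Neither measure separated the conditions (exact permutation p = 0.667, n = 2). Clusters of 5 or more held 2.78% and 2.17% of these peaks untreated and 6.51% and 3.78% treated, and the variance over the mean per 1 Mb was 14.1 and 10.4 against 17.4 and 14.3. Both treated libraries stayed above both untreated ones in these last measures, but the differences of 2.67 percentage points and 3.57 compare with 15.4 and 17.6 in the full lists. The median gap was 23426 and 30634 bp against 13618 and 22485 bp, still shorter in both treated libraries (p = 0.333 for these 3 measures, exact permutation).

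The strong peaks did not show this difference in clustering. Among the 20000 highest-scoring peaks, gaps under 3000 bp made up 22.4% and 32.8% untreated and 20.6% and 24.1% treated. The median gap was then 39624 and 29734 bp against 34924 and 32166 bp, with the treated values inside the untreated range. Peaks per cluster came to 1.29 and 1.49 against 1.26 and 1.32, and clusters of 5 or more held 1.63% and 2.55% against 1.16% and 1.67% of peaks. The variance over the mean per 1 Mb was 9.90 and 10.7 against 10.5 and 11.1. None of these 5 measures separated the conditions, with exact permutation p between 0.667 and 1 (n = 2).

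**Figure D3:**
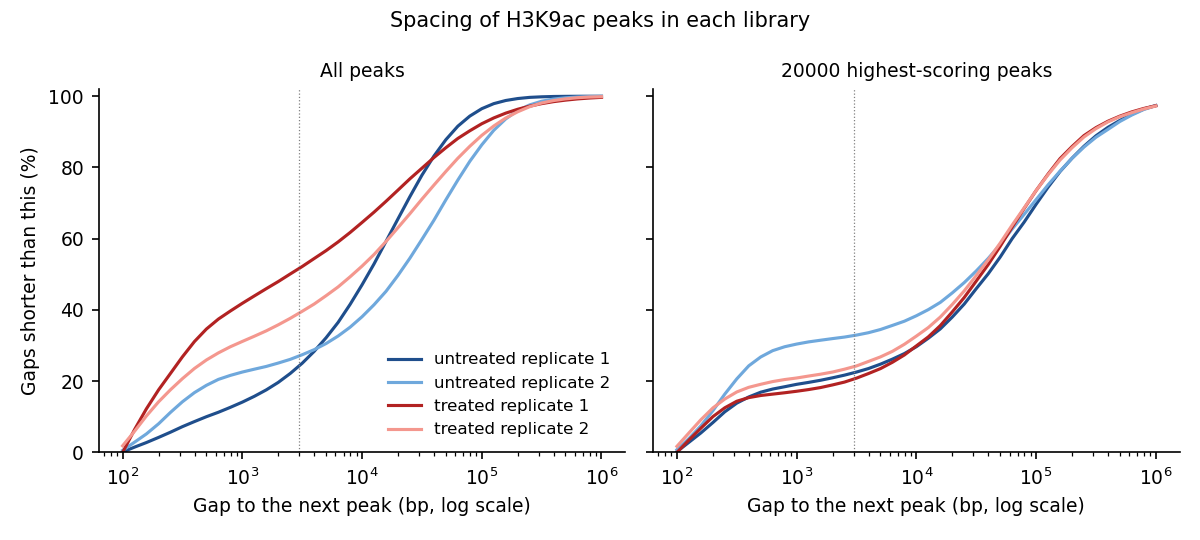
Spacing of H3K9ac peaks. Each line gives, for 1 library, the percent of gaps between neighbouring peaks that are shorter than the value on the log-scaled horizontal axis (bp), for all peaks on the left and the 20000 highest-scoring on the right, and the dotted line marks 3000 bp. At 3000 bp the treated lines stand at 51.7% and 39.2% against 24.3% and 27.1% for all peaks, and at 20.6% and 24.1% against 22.4% and 32.8% for the highest-scoring.

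Weak treated peaks lay beside strong ones more often than weak untreated peaks did. Of peaks beyond place 20000, 7.21% and 12.0% untreated and 22.6% and 20.1% treated lay within 3000 bp of one of the 10000 strongest peaks of the same library. Summed over the strong peaks, the zones within that distance came to 2.42% and 2.29% of genome length untreated and 2.85% and 2.66% treated. Overlaps between zones were counted more than once in these sums, which differed far less than the shares. With the weak peaks held to places 20001 to 59724 in every list the shares were 8.76% and 12.0% against 23.03% and 21.21% (exact permutation p = 0.333, n = 2). The difference of 11.7 percentage points was the same to that precision with and without this limit.

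The cluster with the most peaks was at the same place in both treated libraries and elsewhere in each untreated one. In treated replicate 1 it was chr19:1231453-1281339, with 39 peaks over 49887 bp. The same stretch held 33 peaks in treated replicate 2, where it was also the largest cluster, and 20 and 16 in the untreated libraries. In untreated replicate 1 the largest cluster was chrY:13446784-13490270, with 35 peaks, where untreated replicate 2 and treated replicate 2 had 21 each and treated replicate 1 had 0. In untreated replicate 2 it was chr10:42384482-42400707, with 20 peaks, against 8 in untreated replicate 1 and 9 and 22 in the treated libraries. This chromosome 10 cluster lay within 1 Mb of the longest stretch of its chromosome without a peak in any list, which ends at 42355479. Chromosome Y was not searched for such stretches. Signal without the antibody was not tested at either place, so it is not known whether the peaks there mark acetylated chromatin. The chromosome 19 stretch held more peaks in both treated libraries than in either untreated one. Its 16 peaks in untreated replicate 2 were not far below the 20 of the largest cluster there. The chromosome 10 stretch held more peaks in treated replicate 2 (22) than in untreated replicate 2 (20). The place of the largest cluster therefore does not by itself set the conditions apart.

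The reproducible sets showed how much of each library list recurred in its replicate. Joining overlapping peaks gave 18901 untreated and 31341 treated regions with a peak in both libraries, and these numbers equal the highest region number in the deposited sets. The authors' set kept 76.1% of them untreated (95% Wilson interval 75.5 to 76.7, counting error only) and 67.3% treated (66.8 to 67.8). The treated set was the larger one although a smaller part of its shared regions was kept. Regions with a peak in both libraries took in 16.8% and 41.3% of untreated peaks and 41.5% and 59.9% of treated peaks. Over the regions kept, the Spearman rho between the scores of the replicates was 0.680 untreated and 0.870 treated.

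Reproducible regions were wider in treated cells. Their median width was 1115 bp untreated and 1571 bp treated, and regions of 4000 bp or more numbered 59 and 1380. Over the 14000 regions of highest set score in each condition the medians were 1128 and 2140 bp, so the difference grew from 456 to 1012 bp with equal numbers. The set score, taken here to be −log10 of the rate of irreproducible discovery, was 5 or more in 148 untreated regions (1.03%) and in 11553 treated ones (54.8%). Each condition has 1 set, so none of these differences has a replicate check.

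The widest treated regions were mostly single peaks in treated replicate 1 and several peaks in the other 3 libraries. At chrX:45615929-45632679, the widest of all at 16751 bp, treated replicate 1 had 1 peak over the whole length. Treated replicate 2 had 12 peaks over 13000 bp of it, and the untreated libraries had 12 and 13 peaks over 8821 and 7938 bp. The next widest, chr11:65183495-65198423, was covered over 14883 and 13029 bp treated, in 1 and 6 peaks, and over 10499 and 6913 bp untreated, in 9 and 11 peaks. At chr1:8075162-8089670 the untreated libraries had 5 peaks each and the treated ones 2 and 10, and at chr18:19744716-19758407 the numbers were 8 and 6 against 1 and 8. At chr22:46460449-46473588 they were 7 and 10 against 1 and 3. Treated replicate 2 thus had at least as many pieces as an untreated library in those on chromosomes X, 1 and 18. In each of these 5 regions both treated libraries covered more bases than both untreated libraries, an order that the choice of treated regions favours.

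The widest untreated regions were also wide after treatment. The first, chr11:65266701-65273801, was covered over 6553 and 5780 bp untreated in 3 and 4 peaks and over 7101 and 6985 bp treated in 1 and 2 peaks. The other 4 were chr20:30305842-30312530, chr21:36257334-36263969, chr10:33620391-33626721 and chr18:3448423-3454419. Regions of the treated set covered each of these 5 over its whole length.

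Merging both sets gave 21945 regions, of which 14511 had a peak in all 4 libraries. Within those, acetylated peaks covered a mean of 1365 and 1065 bp per region untreated and 2297 and 1919 bp treated. The distance from the first to the last peak edge was 1567 and 1308 bp against 2323 and 2032 bp. Peaks filled 87.1% and 81.5% of that distance untreated and 98.9% and 94.5% treated. All 3 measures were higher in each treated library than in either untreated one (exact permutation p = 0.333, n = 2). The number of peaks per region was 1.59 and 1.79 untreated and 1.10 and 1.54 treated, so treated replicate 2 was close to untreated replicate 1. In the 20% of regions lowest in mean rank it was 1.27 and 1.20 untreated and 1.08 and 1.41 treated, where treated replicate 2 had the most pieces. Since a merged region runs to the outer bounds of both sets, and those of the treated set were the wider ones, the regions used can raise these values.

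In most regions at least 1 outer edge lay further out in both treated libraries than in both untreated ones. In 6702 regions (46.2%) each of the left and right outer edges lay further out in both treated libraries than in both untreated ones, and in 6172 (42.5%) 1 edge did. Neither edge did so in 1637 regions (11.3%). In 48 regions (0.331%) both edges lay further out in both untreated libraries. The mean edge moved by a median of 301 bp on the left and 302 bp on the right. Taken by the wider and the narrower side of each region, the medians were 479 and 148.5 bp. That order follows from the choice of sides and does not by itself show unequal flanks. Whether the flanks of a region widened unequally was not tested. The left and right shifts had a Spearman rho of 0.0277 over the regions, given as a description. Left and right follow the coordinates and not the direction of a gene.

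Regions of every strength were covered more after treatment. In the 20% of regions highest in mean rank, covered length was 2240 and 1888 bp untreated and 3541 and 3021 bp treated, a ratio of means of 1.59. In the lowest 20% it was 569 and 360 bp against 1188 and 904 bp, a ratio of 2.25. The difference in bp was larger in the strongest regions, at 1217 bp, than in the weakest, at 581 bp, so the order depends on whether a ratio or a length is read.

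Region by region, coverage was higher in both treated libraries than in both untreated libraries in 12879 of 14511 regions (88.8%) and lower in 89 (0.613%). A limma fit to log2 of covered bases over all 14511 regions placed 5612 regions (38.7%) higher and 32 (0.221%) lower, with the Benjamini-Hochberg adjusted p under 0.05. The median log2 difference over all regions was 0.81, and the calls are relative to no change in length. After this shift was removed by subtracting the median of each library, limma called 0 higher and 0 lower, with 2325 regions at an unadjusted p under 0.05. Quantile normalization also left 0 calls, with 2236 regions at that unadjusted p. Coverage was thus higher in most regions, and no region was called beyond the general shift by these fits. With 2 libraries per condition, the lack of calls does not show that all regions widened equally. By strength, the ratio of covered length ran from 1.59 in the highest 20% of regions to 2.25 in the lowest. Without treated replicate 1 the 5612 calls fell to 20, and without untreated replicate 1 they numbered 11150.

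The region with the smallest limma p for width was chr14:62212608-62219655. It was covered over 1026 and 1411 bp untreated and over 7048 and 5290 bp treated, a log2 difference of 2.34 (SE 0.26, limma adjusted p = 0.0170). At chr1:179109393-179113764 the untreated libraries covered 238 and 435 bp and the treated ones 4372 and 2960 bp, a log2 difference of 3.48 (SE 0.43, limma adjusted p = 0.0170). This region was in the treated set and not in the untreated one. The other 3 were chrX:77359664-77365157, chr6:135501184-135504987 and chr20:33890697-33893580, with log2 differences of 2.19, 2.31 and 3.26 in that order. The untreated peaks at chr20:33890697-33893580 were 238 and 287 bp, at or near the narrowest that these lists hold.

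Regions called narrower were few, and most lay beside long stretches without any peak. On each of the 23 chromosomes the longest stretch without a peak in any of the 4 lists was located. On most chromosomes this stretch takes in the centromere, as general knowledge of the assembly has it, where repeats leave a gap. Of the 32 regions called lower in width, 27 (84.4%) lay within 1 Mb of the edge of such a stretch, against 166 of all 14511 regions (1.14%). This measure was chosen after the positions of called regions were seen, and it is a description with no test. The clearest was chr10:42391397-42395226, covered over 3789 and 2619 bp untreated and 365 and 1095 bp treated, a log2 difference of -2.32 (SE 0.47, limma adjusted p = 0.0178). The other 4 with the smallest p were chr10:42597621-42598345, chr2:92319708-92321822, chr16:46408209-46408788 and chr9:94277695-94277968.

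The score order of regions was shared far more closely by the treated replicates than by the untreated ones. Over the 14511 regions the Spearman rho of the highest score per region was 0.743 between the untreated libraries and 0.927 between the treated libraries. The 4 pairs across conditions lay between 0.773 and 0.808. The untreated libraries were thus less like each other than either was like a treated library. The mean rho within conditions exceeded that between them by 0.045. The SD over the 6 pairs was 0.0635, but the pairs share libraries, so it does not measure the spread between replicates. With the untreated pair below every pair across conditions, score order did not separate the conditions. For covered width the rho was 0.848 untreated and 0.956 treated, with 0.824 to 0.878 across conditions, so there the untreated pair lay within the range of those pairs.

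The treated pair also shared the most peaks in top lists of equal length. Of the 5000 highest-scoring peaks, 67.9% met a peak of the other top list in the untreated pair and 83.4% in the treated pair, as the mean of both directions. The 4 pairs across conditions stood between 71.8% and 73.8%. With 500 peaks the shares were 37.6% and 55.4%, and with 20000 they were 70.5% and 89.7%. The treated pair was the most alike at each of these lengths. At 500 peaks the untreated pair, at 37.6%, no longer stood below all pairs across conditions, of which the lowest was 37.2%. When the overlap had to take in 50% of a peak, the 5000 highest-scoring gave 62.2% in the untreated pair and 81.5% in the treated pair. The pairs across conditions then lay between 49.1% and 67.3%, and the untreated pair stood above 3 of the 4.

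**Figure D4:**
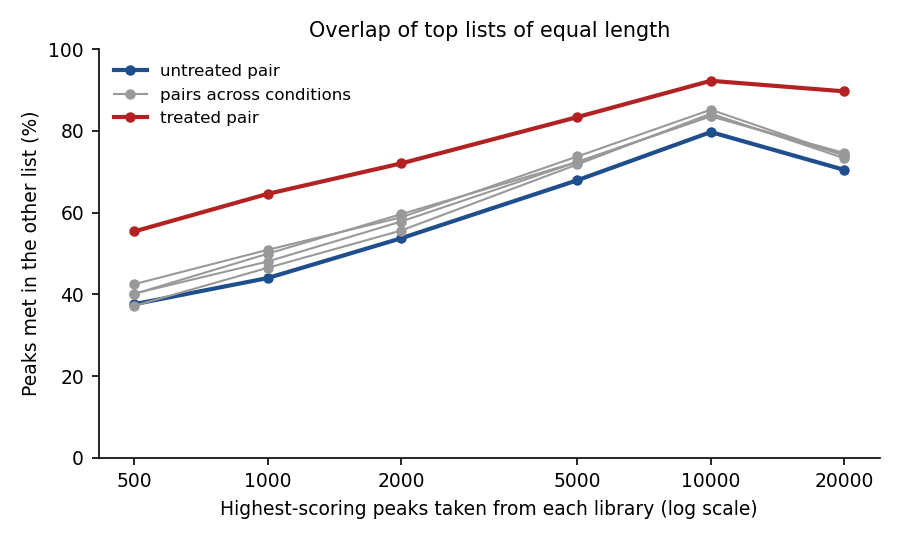
Overlap of top lists of equal length. Each line is 1 of the 6 pairs of libraries, with the number of highest-scoring peaks taken from each library on a log-scaled horizontal axis and the percent that overlap a peak of the other list by at least 1 bp, averaged over both directions, on the vertical axis. The treated pair is highest throughout, at 83.4% for 5000 peaks against 67.9% for the untreated pair.

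Most of the 10 highest peaks of each untreated library stood far lower in the treated orders. The 10 highest peaks of untreated replicate 1 all stood among the first 29 of untreated replicate 2. Each of them lay within 1 Mb of the edge of the longest stretch without a peak on its chromosome. In treated replicate 1 they stood at places 12510 to 23988 and in treated replicate 2 at places 3280 to 10283. The first of them, chr7:61968587-61969760, was at place 1 in both untreated lists and at places 15075 and 3958 in the treated lists. Of the 10 highest of untreated replicate 2, 1 was in the first 1000 of both treated libraries, at places 43 and 1. This peak was chr6:36952787-36955110, and the rest of these 10 lay within 1 Mb of such an edge. The peak at chr7:61968587-61969760 remained in every library, with 1174 and 1015 bp covered untreated and 780 and 975 bp treated. The 5 highest-scoring regions of the untreated set were this one, chr1:121483685-121485634, chr6:58776052-58779483, chr7:61970057-61970635 and chr10:42596697-42597364.

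The top of the treated order had no such pattern. All of the 10 highest peaks of treated replicate 1 stood in the first 1000 of each other library. The highest, chr6:24717694-24722891, was at places 202 and 217 untreated and at places 1 and 2 treated. It was covered over 3440 and 3575 bp untreated and over 5198 and 4332 bp treated. The 5 highest-scoring regions of the treated set were this one, chr1:145208915-145210767, chr20:34327201-34330293, chr6:36513276-36515784 and chr6:42748321-42752106. Of the 100 highest peaks, 18 of untreated replicate 1 and 24 of untreated replicate 2 stood beyond place 10000 in treated replicate 1, where 4 more of the former had no peak. In treated replicate 2 these numbers were 8 and 5. Most of the 100 highest untreated peaks, 64 to 71 of them by pair of libraries, stood in the first 1000 of a treated list. Of the 100 highest of either treated replicate, 0 stood beyond place 10000 in an untreated library.

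**Figure D5:**
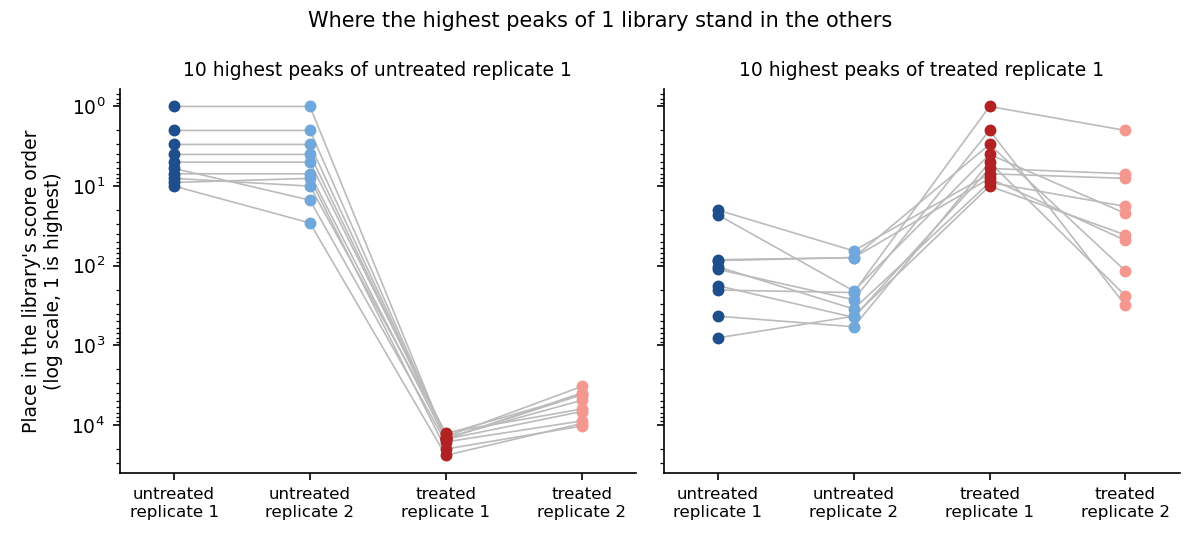
Places of the 10 highest peaks of untreated replicate 1 (left) and treated replicate 1 (right) in the score order of all 4 libraries. The vertical axis is the place on a log scale with 1 at the top, and each grey line joins 1 peak across libraries. The untreated peaks stand at places 12510 to 23988 in treated replicate 1, while the treated peaks stay within the first 1000 everywhere. Each of the untreated peaks lies within 1 Mb of the edge of the longest stretch without a peak on its chromosome.

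The limma fit to the rank of each region, as a normal score within the library, made few calls. Regions ranked higher in both treated than in both untreated libraries numbered 3088 (21.3%), and 3053 (21%) ranked lower in both. At the same threshold 2 regions (0.0138%) ranked higher and 34 (0.234%) ranked lower by limma. Of the 34, 23 stood among the first 1000 of the 14511 regions in both untreated libraries and 28 stood beyond place 5000 in both treated ones. The 34 and the 32 regions lower in width shared 17, which is 50% of the first list and 53.1% of the second. With 1 library left out the number of regions lower in rank ran from 27 to 1132, the latter without untreated replicate 1. Without untreated replicate 2 it was 1090.

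As with width, 28 of the 34 (82.4%) lay within 1 Mb of the edge of the longest stretch without a peak. Their median place among the 14511 regions was 69.5 and 36.5 untreated and 13390 and 9140 treated. A place is relative to the other regions of the same library, so a lower place does not by itself show less signal. Their median covered length was 1005 and 628 bp untreated and 206 and 397 bp treated. Another 2 of the 34 lay on the mitochondrial chromosome, whose DNA is not packaged in histones. Peaks covered 15799 and 3220 bp of it untreated and 3302 and 13266 bp treated, which did not separate the conditions, while both of its regions ranked lower after treatment (limma adjusted p = 0.00245 for each). The inputs, which would show signal without the antibody at these places, were not analysed here, and the part of such signal in the differences was not tested.

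The other 4 regions lower in rank lay at chr11:67895990-67896648, chr14:23445161-23447069, chr18:107993-109971 and chr9:79186490-79187055, and were named after their values were seen. The 5 of smallest p on numbered chromosomes were chr10:42596697-42597364, chr19:27731799-27733550, chr10:42395819-42397181, chr10:42386801-42388718 and chr17:22261356-22261821. The first of these was at places 9 and 8 among the regions untreated and 14018 and 9887 treated, a difference of -4.41 normal score units (SE 0.442, limma adjusted p = 0.00245).

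The region with the smallest p for a higher rank went from near the end of the order to its top. At chr6:30649363-30649907 the place was 13189 and 12629 untreated and 24 and 13 treated, a difference of 4.25 normal score units (SE 0.345, limma adjusted p = 0.000498). Coverage there was 472 and 232 bp untreated and 545 bp in each treated library, which is its whole length. The region comes from the untreated set alone, so treated peaks are cut at its bounds and their full width is not read here. Their scores are not cut, since a region takes the highest score of any peak that meets it. The rank can therefore reflect treated peaks that run past this region, and where they are strongest was not tested. The other call was chr21:37801323-37802464, at places 12228 and 11872 untreated and 1576 and 3884 treated (limma adjusted p = 0.0417). The next 3 did not pass the threshold, at chr5:33048174-33050092, chr19:45942240-45943910 and chr2:28972873-28974559, with limma adjusted p of 0.0537, 0.109 and 0.131.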

How the data were processed

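The 4 H3K9ac peak lists and 2 reproducible sets of the series were used; H3K9me2 lists and inputs were not analysed here. Per the submitters' processing notes the build was hg19 and the tools were MACS2, SICER, Picard, BWA 0.7.5 and Trimmomatic 0.32; their roles and settings were not stated. The score in column 5 of each library list is the authors' own, of unstated scale. The reproducible sets carry the authors' deposited score, read as −log10 of an irreproducible discovery rate because its minimum is 1.301; it was used to order and describe regions. Other deposited columns, peak starts and ends, served as positions.

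Widths, gaps, clusters (gaps under 3000 bp) and overlaps (at least 1 bp) were computed with Python 3.11.15, numpy 2.4.6, pandas 2.3.3 and SciPy 1.17.1. Condition means of 2 libraries each were compared by exact two-sided permutation, with a smallest p of 0.333 from 3 groupings. Covered bases (log2) and rank (normal score) per region were fitted by limma 3.58.1 (R 4.3.3, trended prior variance), adjusting p over 14511 regions with a peak in all 4 libraries. Interval code and limma fits were tested on simulated data. The depth of each library is unknown, and its part in the differences between conditions was not tested.

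Members, lists and measures were chosen with earlier results of these data known. Loci named are the 5 of smallest limma p in each direction, the 5 widest and 5 highest-scoring regions of each set and the largest cluster of each library, on chromosomes 1 to 22, X and Y. The planned counts at gene starts and marker genes were not run, since no hg19 annotation was used. Alternatives were shorter lists, other gap limits, joined peaks, other normalizations, blocks and leaving out each library. The labels tie replicate numbers to no batch, so numbers were not treated as pairs.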

Additional observations from a re-analysis of the deposited data

How the results depend on the processing

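With the 20000 highest-scoring peaks the treated minus untreated difference changed sign for median width (728 bp, from -19.0), gaps under 3000 bp (-5.25 percentage points, from 19.7), peaks per cluster (-0.0996, from 0.51) and peaks in clusters of 5 or more (-0.67 percentage points, from 15.4). Median width also changed sign in lists of equal number (12.5 bp), for peaks of 300 bp or more (391 bp; chosen after seeing the data) and, without 1 library, ran from -42 to 4 bp, above 0 only without treated replicate 2. For those peaks gaps under 3000 bp differed by 5.28 percentage points, peaks per cluster by 0.101, peaks in clusters of 5 or more by 2.67 percentage points and the variance over the mean by 3.57 (from 17.6). N50 and the share of bases in peaks of 2000 bp or more kept their direction in all alternatives run. The top list difference within over between conditions rose from 3.07 to 13.9 percentage points when 50% of a peak had to overlap, and the set width difference from 456 to 1012 bp for 14000 regions.

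For covered width limma called 5612 higher and 32 lower; with a replicate block 9785 and 56, with crossed numbers (added later) 1671 and 11, with no trend 878 and 8, and with the median subtracted or quantile normalization 0 and 0. Leaving out 1 library gave 20 to 11150 higher and 7 to 32 lower. For rank it called 2 higher and 34 lower; with a replicate block 23 and 74, with crossed numbers 72 and 117, with no trend 1 higher, in regions of both sets 1 higher, and by the score of the widest peak 17 lower. Leaving out 1 library gave 1 to 1135 higher and 27 to 1132 lower, where the lone sample is assumed to vary like the others. Deviations of same-numbered libraries had correlations of -0.013 (width) and -0.108 (rank). The cause of these changes was not tested. Unknown depth and 2 libraries per condition limit all results.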
